A study of Homo sapiens with 8 samples.

Results

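Of the 22 transfer RNA genes of the human mitochondrial genome, 8 are encoded on the minus strand in GRCh38: MT-TQ, MT-TA, MT-TN, MT-TC, MT-TY, MT-TS1, MT-TE and MT-TP, which carry glutamine, alanine, asparagine, cysteine, tyrosine, serine, glutamate and proline. Their values come from the listed peaks on the minus strand of the mitochondrial chromosome (chrM) that overlap any of the 8 genes by at least 1 nt. Of 4746 peaks 43 met this rule, out of 330 peaks on chrM and 60 on its minus strand, and they merged over the libraries into 7 regions of 1373. The choice used position alone and no count.

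The study profiled RNA aldehydes in wild-type (WT) and ALKBH1 knockout (KO) HEK-293, a line from human embryonic kidney, by ARP-seq; the labels name HEK-293 and the study's text HEK293T. Total RNA of both genotypes was cut to about 150 nt and treated with 2 mM aldehyde-reactive probe (ARP), a biotin reagent that forms an oxime with aldehydes such as 5-formylcytidine (f5C), for 24 h. A portion was kept as input after the probe step, so input RNA was also treated, and the rest was pulled down on streptavidin (IP). The 4 groups, WT input, WT IP, KO input and KO IP, hold 2 libraries each. The KO line goes back to single edited cells, so clone and genotype cannot be told apart. The study calls the replicates biological but does not say what they share, so p-values measure only the spread between these libraries.

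Mitochondrial tRNAs are cut out of long transcripts of both strands of the circular genome, and the minus strand members come from the transcript that starts at the light-strand promoter and otherwise carries mainly MT-ND6. MT-TA, MT-TN, MT-TC and MT-TY lie next to each other around the origin of light-strand replication. ALKBH1 is a dioxygenase best known for oxidising 5-methylcytidine to f5C at the wobble base of mitochondrial methionine tRNA (MT-TM), a plus strand gene.

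The anticodon arms show how the 8 members differ from MT-TM at the base that is formylated there. Capitals mark the anticodon, and its first letter is the wobble base; letters are DNA, read 5′ to 3′ along the tRNA from the GRCh38 FASTA.
MT-TQ: gagaattTTGgattctc
MT-TA: gctgattTGCgttcagt
MT-TN: cttagctGTTaactaag
MT-TC: ttgaattGCAaattcga
MT-TY: ttggactGTAaatctaa
MT-TS1: gttggctTGAaaccagc
MT-TE: atggtttTTCatatcat
MT-TP: ttagcttTGGgtgctaa
MT-TM: tcgggccCATaccccga
The wobble base was C in 0 of the 8 members and in 1 of the 14 plus strand tRNA genes, MT-TM. A C anywhere in the 7-base anticodon loop was present in 6 of 8 members, all but MT-TQ and MT-TP, against 12 of 14 plus strand genes. The members were richer in G (median 28.02%, range 23.5 to 36.1%) than the plus strand genes (median 15.4%, range 10.3 to 19.1%), and these ranges did not overlap. Their C content had a median of 13.04% against 20.6%.

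Levels are cDNA counts, that is unique molecules summed over a peak, or CPM, those counts scaled to the total of all counts listed for a library. The libraries listed between 48380 and 285539 counts, and the lowest listed count, 10, stood for 35.0 to 207 CPM, so a gene without a peak may still have been present below that level. KO inputs were the deepest libraries, and a peak missing elsewhere is less informative than a peak missing there. Fewer tRNA molecules and fewer recovered molecules per tRNA cannot be told apart in these bulk libraries. ALKBH1 had no listed peak in any library, so the knockout could not be checked here, and 0 of 7 marker genes of HEK-293 cells and 0 of 4 of other cell types had a peak.

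The 8 genes differed widely in level, and MT-TY carried most of their counts. In the input of WT cells, CPM per nt of gene length was 71.7 and 73.3 for MT-TY, 23.3 and 24.5 for MT-TP, 17.5 and 28.5 for MT-TS1, and 4.77 and 4.14 for MT-TA. MT-TP and MT-TS1 overlapped in that order, while MT-TY stood above and MT-TA below both. MT-TQ had a single peak in these inputs, at 1.62 CPM per nt, as had MT-TE, at 3.55 CPM per nt. MT-TN had none, and MT-TC had no peak of its own in any of the 8 libraries.

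**Figure D1:**
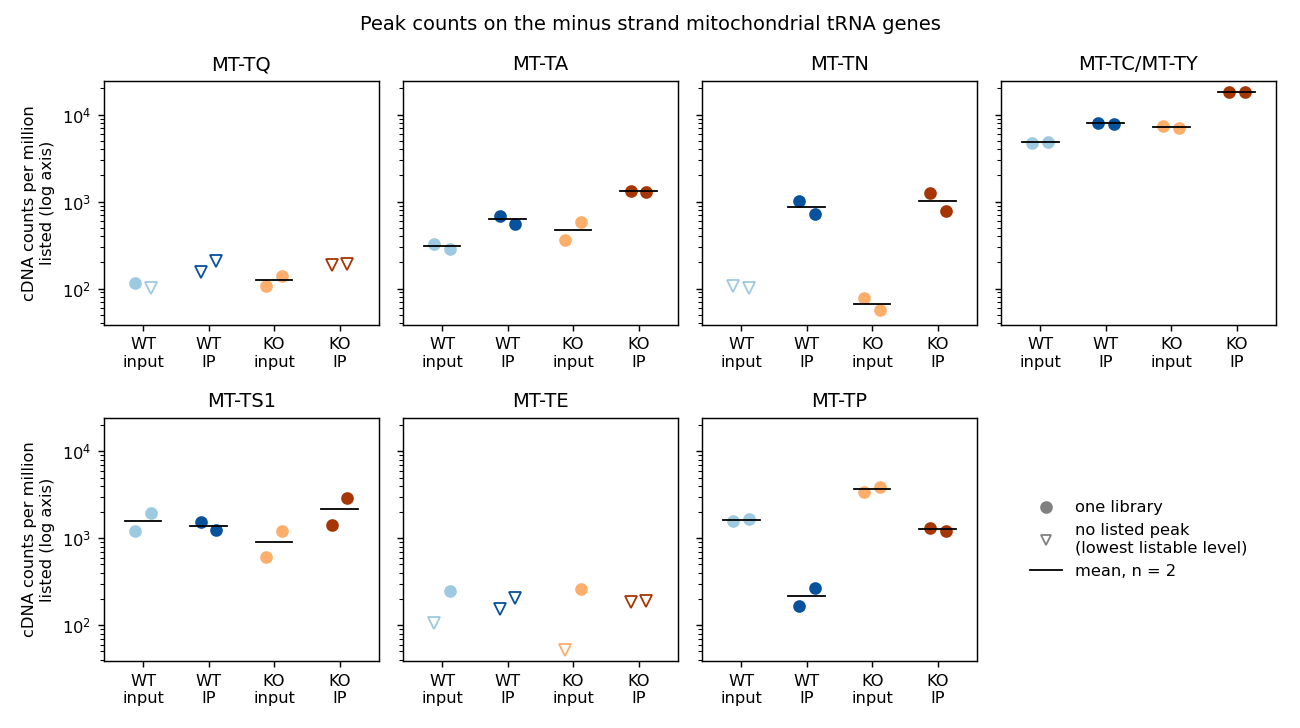
Listed cDNA counts as CPM (log axis) on each merged region, by group. Filled points are single libraries, bars are means of 2 libraries, and open triangles mark libraries without a listed peak at the lowest level that could be listed. MT-TN was listed at 723 CPM and above in the IP libraries and at 77.1 CPM or less in the KO inputs, while the WT inputs listed no peak and could have listed none below 102 CPM. By contrast, MT-TP was lower in IP than in input in both genotypes.

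The position of the listed peaks within each tRNA is shown by the bases that the peaks of all 4 IP libraries share, in capitals in the full genes below. The study located its iCLIP sites by reverse transcription stops and processed the ARP data with the same pipeline. A peak therefore need not show how far a pulled-down molecule reached. The genes lie on the minus strand of GRCh38 at chrM:5587-5655 (MT-TA), chrM:5657-5729 (MT-TN), chrM:5826-5891 (MT-TY), chrM:7446-7514 (MT-TS1) and chrM:15956-16023 (MT-TP), each an annotated single-exon mitochondrial tRNA gene.
MT-TA: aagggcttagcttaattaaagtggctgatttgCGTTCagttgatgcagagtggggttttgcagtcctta
MT-TN: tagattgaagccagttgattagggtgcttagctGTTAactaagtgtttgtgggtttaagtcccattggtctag
MT-TY: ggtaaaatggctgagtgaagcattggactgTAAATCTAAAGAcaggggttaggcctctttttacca
MT-TS1: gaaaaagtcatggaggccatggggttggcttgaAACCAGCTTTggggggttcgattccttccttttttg
MT-TP: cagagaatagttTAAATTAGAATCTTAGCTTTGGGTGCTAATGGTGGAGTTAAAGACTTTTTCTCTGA
In 4 of these 5 genes the shared bases were a short run at the anticodon or just 3′ of it. Counted from the wobble base as 0, they ran from 2 to 6 in MT-TA, from 0 to 3 in MT-TN, from 1 to 12 in MT-TY and from 3 to 12 in MT-TS1. MT-TP was the exception, with shared bases from -19 to 36.

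**Figure D2:**
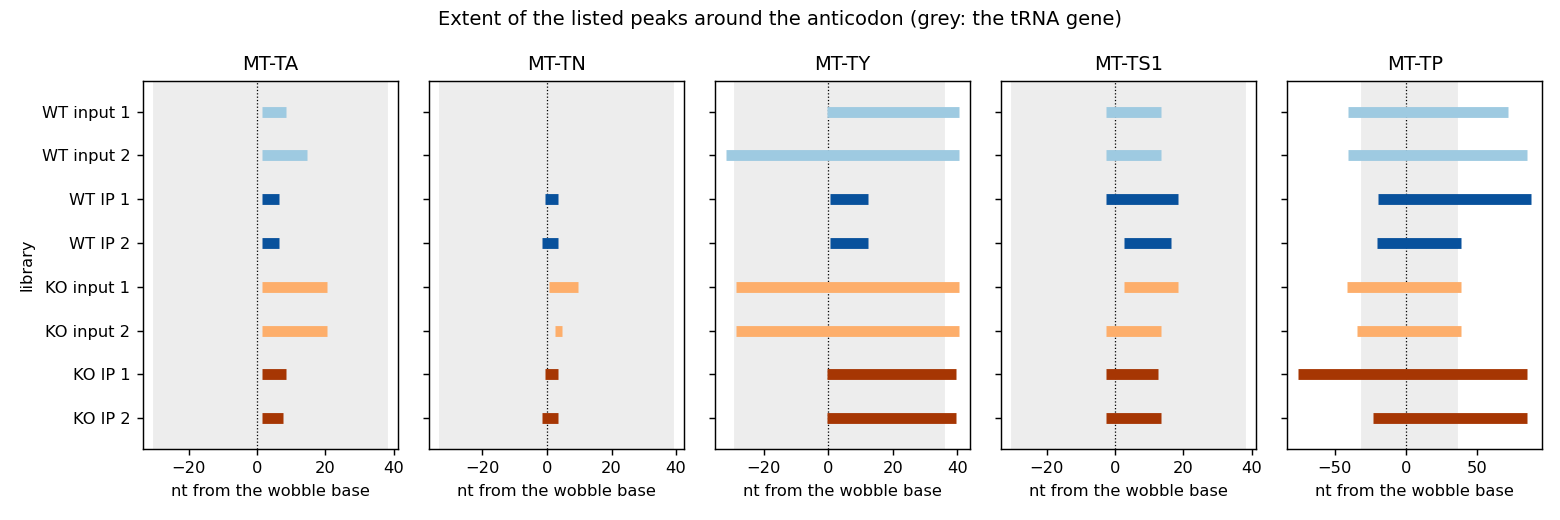
Extent of each listed peak, in nt from the wobble base (dotted line, 3′ to the right), for the 5 members with peaks in all IP libraries. Colours follow the 4 groups and grey marks the gene. The MT-TY peak spanned 12 nt in both WT IP libraries and 40 nt in both KO IP libraries, and MT-TP peaks ran past the gene in all 8 libraries.

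Peak widths varied by gene and group. Over the 5 members listed in all IP libraries, the median width was 12 nt in WT IP (10 peaks) and 28.5 nt in WT input (8 peaks, none of MT-TN), and 15.5 nt in KO IP and 19 nt in KO input (10 peaks each). MT-TP went the other way in the KO, with peaks of 160 and 108 nt in IP and 80 and 73 nt in input. Over all listed members the input medians were 36 nt in WT and 48 nt in KO, which include MT-TQ and MT-TE, listed in inputs alone. The wobble base lay inside the peak in 5 of 10 member peaks of the WT IP, 8 of 10 of the KO IP, 8 of 10 of the WT input and 8 of 13 of the KO input. The IP libraries also listed fewer counts in all (48380 to 65413) than the inputs (94218 to 285539), and the part of depth in these widths was not tested.

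MT-TN, the asparagine tRNA with anticodon GTT, was listed mainly in the pulled-down RNA. It was listed with 66 and 35 counts in WT IP and with 67 and 41 in KO IP. The WT inputs listed no peak, and the deeper KO inputs listed 15 and 16 counts. In CPM the KO IP libraries (1254 and 786) lay far above the KO inputs (77.1 and 56.0). The IP peaks began at the wobble base or 1 nt before it and spanned 4 or 5 nt, while the KO input peaks lay 1 to 9 nt and 3 to 4 nt 3′ of the wobble base.

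MT-TA, the alanine tRNA, was also higher in IP than in input. Its counts were 31 and 28 in WT input and 45 and 27 in WT IP, which is 307 ± 30.7 and 623 ± 91.8 CPM (SD, n = 2). In the KO the counts were 70 and 167 in input and 71 and 68 in IP, or 472 ± 159 and 1317 ± 17.6 CPM (SD, n = 2). IP and input libraries did not overlap in CPM in either genotype, and all 8 peaks started 2 nt after the wobble base.

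MT-TY, the tyrosine tRNA, gave the deepest peak of the set. The counts were 446 and 474 in WT input, 531 and 382 in WT IP, 1451 and 1982 in KO input, and 970 and 939 in KO IP. As CPM these were 4784 ± 71.7, 8007 ± 157, 7201 ± 367 and 18084 ± 104 (SD, n = 2). The order was WT input, KO input, WT IP, KO IP, with no overlap between neighbours. MT-TY and MT-TC share the base chrM:5826, and all MT-TY peaks except the WT IP ones reached over it into the 5′ end of MT-TC, so the region is named MT-TC/MT-TY although its counts were placed in MT-TY by largest overlap.

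MT-TS1, the serine tRNA read from UCN codons, varied widely between replicates. It had 114 and 193 counts in WT input, 101 and 61 in WT IP, 118 and 348 in KO input, and 75 and 152 in KO IP. The CPM values were 1589 ± 537, 1402 ± 200, 913 ± 433 and 2160 ± 1069 (SD, n = 2). WT IP and WT input overlapped, and in the KO the lower IP library (1404 CPM) lay above the higher input library (1219 CPM).

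MT-TP, the proline tRNA and the first gene behind the light-strand promoter, was the member with the lowest IP relative to input among those listed in IP. It had 149 and 163 counts in WT input but 11 and 13 in WT IP, and 668 and 1107 in KO input but 71 and 64 in KO IP. That is 1622 ± 57.5 CPM against 218 ± 71.1 in WT and 3656 ± 313 against 1278 ± 71.8 in KO (SD, n = 2). Its peaks were 59 to 160 nt wide and ran past the tRNA at the 5′ or the 3′ end in all 8 libraries, on the side of MT-TT by up to 51 nt. Where a peak ran far past the gene, the MT-TP value can include molecules that are not the mature tRNA. The peak of the second WT IP library passed the gene by only 2 nt, at the 3′ end.

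MT-TQ and MT-TE were listed only in input libraries. MT-TQ, the glutamine tRNA, had 11 counts in the first WT input library and 21 and 40 in KO input. MT-TE, the glutamate tRNA, had 24 counts in the second WT input library and 75 in the second KO input library. Neither was listed in any of the 4 IP libraries, where the lowest listed count stood for 153 to 207 CPM, above the 108 to 140 CPM that MT-TQ reached in its inputs. MT-TE reached 245 and 263 CPM in the 2 inputs that listed it, but was also unlisted in the other replicate of each, including the first KO input library, where the lowest listed count stood for 51.4 CPM. On the chrM counts alone, the absence of either gene from IP is therefore not informative at this depth. With the counts at its exact nuclear copy added (below), MT-TQ had 126 and 225 counts in KO input and none listed in KO IP. In WT these sums were 33 and 13 in input, 13 in the first IP library and none listed in the second.

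Pulldown against input was compared in WT by edgeR's quasi-likelihood test with Benjamini-Hochberg adjustment over all 243 regions that had a peak in each compared library, of which 48.1% were called at an adjusted p under 0.05 (23% higher and 25.1% lower). Of the 4 members tested, 2 were higher in IP and 1 was lower, and their median log2 change was 0.22 against -0.17 over all regions tested. MT-TA rose by 0.95 ± 0.229 (log2 fold change with its SE, adjusted p = 0.0295) and MT-TC/MT-TY by 0.68 ± 0.105 (adjusted p = 0.0085). MT-TP fell by 2.97 ± 0.312 on the log2 scale (adjusted p = 0.00226), which is 7.84-fold lower, and MT-TS1 was at -0.25 ± 0.300 (adjusted p = 0.555). The MT-TA call was lost whenever any of the 4 libraries was left out, with adjusted p from 0.0714 to 0.138, and DESeq2 gave it an adjusted p of 0.277. With regions without a peak set to the lowest listed count, neither rise was called, at 0.59 for MT-TA (adjusted p = 0.351) and 0.30 for MT-TC/MT-TY (adjusted p = 0.282), and with such regions at 0 MT-TA was at 1.05 (adjusted p = 0.125). MT-TN had no input peak and could not enter this fit. With the filling at the lowest listed count, its log2 difference was 2.63 ± 0.456 (adjusted p = 0.0275, over 914 regions), a value that depends on that filling.

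In the KO, 56.5% of 246 regions were called between IP and input (25.6% higher and 30.9% lower). Of the 5 members tested, 3 were higher in IP and 1 was lower, with a median log2 change of 1.23 against 0.04 over all regions. MT-TN rose 14.5-fold (log2 3.86 ± 0.337, adjusted p = 0.000264), MT-TA 2.61-fold (log2 1.38 ± 0.250, adjusted p = 0.004) and MT-TC/MT-TY 2.35-fold (log2 1.23 ± 0.128, adjusted p = 0.00043). MT-TP fell by 1.61 ± 0.163 on the log2 scale (adjusted p = 0.000424). MT-TS1 was at 1.15 ± 0.420 (adjusted p = 0.0553). Its value moved with the library left out, to 0.70 without the first KO input library and 1.64 without the second. It was at 1.66 without the first KO IP library and at 0.35 without the second. On all 4 libraries it was called with summed counts as library sizes (1.23, adjusted p = 0.0483) and by DESeq2 (1.21 ± 0.424, adjusted p = 0.0125). Of 13 alternatives, 8 left MT-TS1 without a call. MT-TA lost its call without the first KO IP library (log2 1.45, adjusted p = 0.0542), with regions without a peak at 0 (1.30, adjusted p = 0.0514) and with them at the lowest listed count (0.46, adjusted p = 0.268). This last filling brought MT-TC/MT-TY to 0.32 (adjusted p = 0.0324) and MT-TN to 2.93 (adjusted p = 0.0103), both still called.

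**Figure D3:**
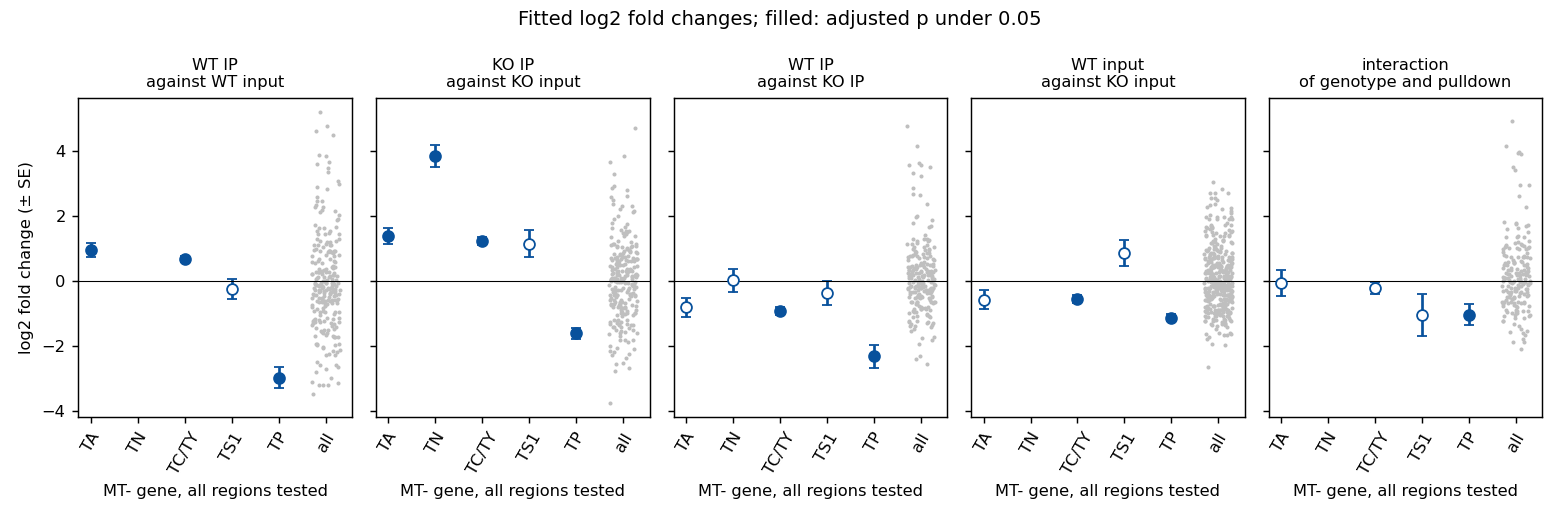
Fitted log2 fold changes with SE for the members in each comparison, beside all regions tested (grey). Filled points have an adjusted p under 0.05. MT-TA and MT-TC/MT-TY lie above 0 and MT-TP below 0 in both IP against input panels. The interaction of genotype and pulldown is called for MT-TP alone.

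The pulldowns of both genotypes were then compared directly, the comparison in which a loss of ALKBH1-dependent aldehydes would appear as a positive value. Of 220 regions 37.3% were called, 18.6% higher in WT and 18.6% lower. Of the 5 members tested, 0 were higher in WT IP and 2 were lower, MT-TP by 2.31 ± 0.353 on the log2 scale (adjusted p = 0.00107) and MT-TC/MT-TY by 0.92 ± 0.115 (adjusted p = 0.000422). MT-TN was at 0.03 ± 0.353 (adjusted p = 0.946), MT-TA at -0.81 ± 0.303 (adjusted p = 0.0641) and MT-TS1 at -0.36 ± 0.363 (adjusted p = 0.497). MT-TA was called, still lower in WT, without the first WT IP library (log2 -0.98, adjusted p = 0.0499) and with summed counts as library sizes (-1.07, adjusted p = 0.0208), which made 3 members called. The median of the members was -0.81 against 0.03 over all regions, and that scaling moved the median of all regions to -0.22 and the split of calls to 28 higher and 55 lower. In the main fit, 5 plus strand mitochondrial tRNA regions were tested. Of these, 1 was higher in WT IP and 3 were lower, with a median of -0.51.

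The MT-TC/MT-TY value rests on peaks of unequal length. The WT IP peaks covered 12 nt and the KO IP peaks 40 nt, and per covered nt the WT IP libraries were the higher ones, at 676.5 and 658 CPM against 453.9 and 450.3 CPM. The counts of a peak cannot be divided by position, so the same 12 nt could not be compared. The inputs, with peaks of 41 to 72 nt, stood at 115.5 and 67.2 CPM per covered nt in WT and 108 and 101 in KO, below IP on this scale too. For MT-TP the peaks covered 107 and 59 nt in WT IP and 160 and 108 nt in KO IP, and WT IP stayed lower per covered nt, at 1.57 and 4.55 CPM against 8.31 and 11.4 CPM. For MT-TN the covered lengths were 4 and 5 nt in both genotypes.

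The inputs of both genotypes differed too. Of 400 regions 35.2% were called (15.5% higher in WT and 19.8% lower), and of the 4 members tested 0 were higher and 2 lower. MT-TP was lower in WT input by 1.13 ± 0.110 on the log2 scale (adjusted p = 0.0149) and MT-TC/MT-TY by 0.55 ± 0.115 (adjusted p = 0.0359). MT-TA was at -0.57 ± 0.290 (adjusted p = 0.176) and MT-TS1 at 0.85 ± 0.401 (adjusted p = 0.156). The median over the members was -0.56 against -0.0041 over all regions. Lower values in WT input were not particular to the members. Of 8 plus strand mitochondrial tRNA regions tested, 1 was higher and 5 were lower, with a median of -0.67. Of 13 further chrM regions, 0 were higher and 4 were lower, with a median of -0.54. The MT-TC/MT-TY call was lost when any of the 4 libraries was left out (adjusted p from 0.067 to 0.114). The MT-TP call was lost without the second WT input library (adjusted p = 0.0639), the first KO input library (adjusted p = 0.0947) or the second KO input library (adjusted p = 0.0726), and in each of these 3 fits edgeR called 0 regions of the whole table, with 184, 150 and 149 at an unadjusted p under 0.05. DESeq2 on all 4 libraries called 59 regions.

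The difference between genotypes in IP over input was tested as an interaction of genotype and pulldown over 186 regions, of which 30.1% were called (19.9% higher and 10.2% lower in WT). Of the 4 members tested, 0 were higher and 1, MT-TP, was lower, by 1.03 ± 0.329 on the log2 scale (adjusted p = 0.0469). The values of MT-TA (-0.06 ± 0.391, adjusted p = 0.931), MT-TC/MT-TY (-0.21 ± 0.177, adjusted p = 0.408) and MT-TS1 (-1.05 ± 0.636, adjusted p = 0.259) did not pass. The members' median was -0.62 against 0.04 over all regions. MT-TC/MT-TY was called under both other scalings, at -0.38 with RLE factors (adjusted p = 0.0458) and -0.59 with summed counts as library sizes (adjusted p = 0.00819), and at -0.48 without the first WT IP library (adjusted p = 0.0168). These scalings moved the median of all regions to -0.14 and -0.34 and the split of calls from 37 higher and 19 lower to 33 and 32, and to 21 and 48. The MT-TP call was lost in 7 of the 8 fits that left out a library (log2 -0.94 to -1.29, adjusted p from 0.051 to 0.119) and held without the second WT IP library (log2 -1.35, adjusted p = 0.0492). It was also lost with regions without a peak at 0 (-1.33, adjusted p = 0.188) or at the lowest listed count (-0.74, adjusted p = 0.219). MT-TN could not be tested for an interaction because the WT inputs listed no peak.

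A rule modelled on the study's was also applied: a count above 10 in both IP replicates and either no input peak or a mean ratio of IP to input above 1.5. The study does not say how counts were scaled for the ratio, so CPM and the mean over replicates were chosen here. In WT the rule kept 3 of the 7 regions, MT-TA (mean ratio 2.02), MT-TN (no input peak) and MT-TC/MT-TY (1.67), and not MT-TS1 (0.958) or MT-TP (0.134). In KO it kept 4, MT-TA (2.96), MT-TN (15.1), MT-TC/MT-TY (2.51) and MT-TS1 (2.35). With the ratio taken on the listed counts, chosen after seeing the data, the rule kept 1 region in each genotype, MT-TN, while MT-TA had a mean ratio of 1.21 in WT and 0.711 in KO and MT-TC/MT-TY 0.998 and 0.571. All 3 regions kept in WT by CPM were listed in both KO IP libraries, so 0 of the 7 regions met the rule in WT and lacked a KO IP peak.

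As a share of all listed counts, the 8 genes held 0.848% ± 0.0726 in WT input, 1.11% ± 0.0580 in WT IP, 1.26% ± 0.0731 in KO input and 2.39% ± 0.0544 in KO IP (SD, n = 2). The libraries of each group did not overlap with those of the group it was compared with, whether IP and input of a genotype or WT and KO of a fraction. With 2 libraries against 2, the exact two-sided permutation test gave p = 0.333 for each of the 4 comparisons, the smallest value this design allows. Single libraries had 95% Wilson intervals of which the widest ran from 2.30 to 2.56% (the second KO IP library), and these cover counting error only.

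**Figure D4:**
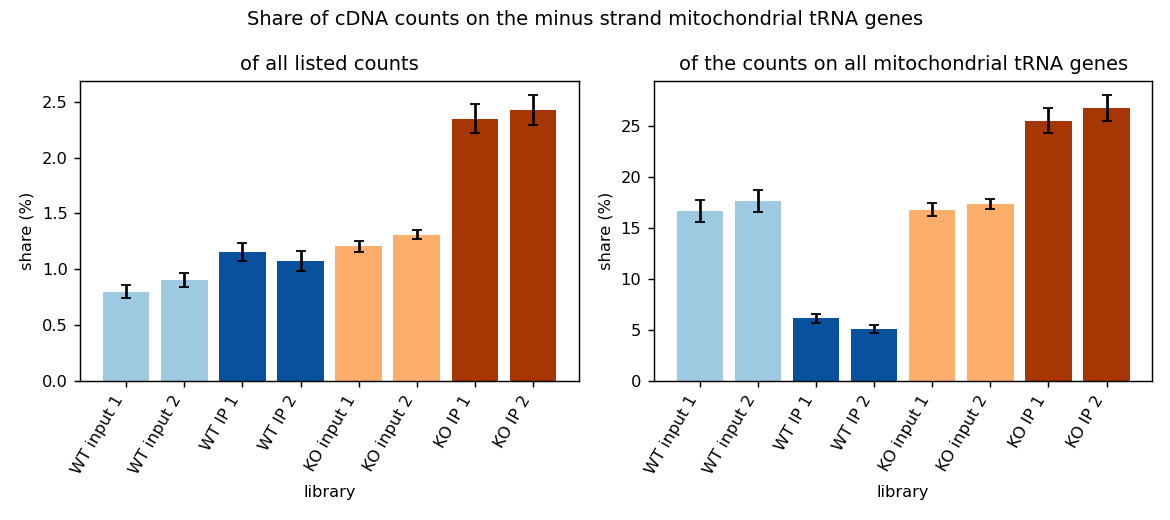
Share of cDNA counts on the 8 minus strand tRNA genes in each library, of all listed counts (left) and of the counts on all 22 mitochondrial tRNA genes (right). Bars are libraries, coloured by group, and error bars are 95% Wilson intervals. On the right the WT IP libraries are the lowest, at 6.11 and 5.04%, and the KO IP libraries the highest, at 25.6 and 26.8%.

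Within the mitochondrial tRNAs the order of the groups was different. The minus strand genes held 17.1% ± 0.696 of the mitochondrial tRNA counts in WT input and 17.1% ± 0.398 in KO input, but 5.58% ± 0.755 in WT IP and 26.2% ± 0.862 in KO IP (SD, n = 2). The denominator moved with MT-TM, which had 9326 and 8311 counts in WT IP and 753 and 866 in KO IP. Each peak was placed on the gene of largest overlap, and in the 4 inputs none was placed on MT-TM. MT-TM lies in a merged region with MT-TI, the plus strand isoleucine tRNA. An input peak over both genes could therefore have been placed on MT-TI. The counts placed on MT-TM were then left out of the denominator, a choice made after seeing the data. The share was 25.7% ± 0.982 in WT IP and 31.5% ± 1.84 in KO IP (SD, n = 2), and both input shares stayed at 17.1%. The counts placed on MT-TI stayed in, at 1097 and 1339 in WT input, 61 and 56 in WT IP, 3232 and 5344 in KO input and 186 and 179 in KO IP. IP was above input in both genotypes, but how far this rests on the placing of peaks over both genes was not tested. The exact permutation p between the IP groups was 0.333 with and without MT-TM.

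Several members have near-identical copies in the nuclear genome, and the study kept only uniquely mapping reads. A search of the nuclear chromosomes with blastn found exact full-length copies of MT-TQ, MT-TN, MT-TS1 and MT-TE (1 each) and of MT-TA (2). The best copies of MT-TC and MT-TY were 98.5% identical, with 1 mismatch, and that of MT-TP was 91.2% identical. The counts of the members with exact copies are therefore uncertain, because reads that lie inside the gene match both places.

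Peaks were listed on some of these copies, on the strand of the copied tRNA. The MT-TE copy at chr5:94569467-94569535 had a peak in all 8 libraries, with 57 and 33 counts in WT input, 21 and 15 in WT IP, 103 and 227 in KO input and 42 and 32 in KO IP, more than MT-TE itself in each. The MT-TQ copy at chr1:629499-629570 had 22 and 13 counts in WT input, 105 and 185 in KO input, 13 in the first WT IP library and none listed in the other IP libraries. The MT-TS1 copy at chr1:632617-632685 had 39 and 42, 29 and 28, 101 and 165, and 28 and 33 counts in WT input, WT IP, KO input and KO IP. On this copy IP and input differed by a log2 of 0.21 ± 0.256 in WT (adjusted p = 0.581) and -0.02 ± 0.205 in KO (adjusted p = 0.95).

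A merged region on chromosome 1, chr1:630855-631032, overlaps the copies of MT-TN, MT-TC and MT-TY. It had 49 and 43 counts in WT input, 120 and no listed peak in WT IP, 40 and 122 in KO input and 235 and 223 in KO IP. Between IP and input in KO it rose by a log2 of 3.66 ± 0.310 (adjusted p = 0.000252). The input peaks overlapped only the MT-TY copy, whereas the IP peaks overlapped all 3 copies, so this value compares peaks of different extent and does not belong to a single copy.

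Adding the counts on exact copies that had a region of their own, an alternative chosen after seeing the data, brought MT-TE into the tests. It also brought MT-TQ into the comparison of WT with KO inputs, at a log2 of -1.52 ± 0.475 (adjusted p = 0.0627). The MT-TQ copy alone was at -1.65 ± 0.324 there (adjusted p = 0.0314). For MT-TE the summed counts were 57 and 57 in WT input and 21 and 15 in WT IP, a log2 change of -0.97 ± 0.202 (adjusted p = 0.02). In KO they were 103 and 302 in input and 42 and 32 in IP (log2 -0.27 ± 0.344, adjusted p = 0.541). MT-TS1 stayed without a call, at -0.14 ± 0.244 in WT (adjusted p = 0.685) and 0.81 ± 0.330 in KO (adjusted p = 0.0769). MT-TN kept its chrM counts alone, because the region of its exact copy also covers the copies of MT-TC and MT-TY. Its rise in IP was therefore not tested with the counts of its copy added.

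The regions most like each member over the 8 libraries were looked up among the 186 regions listed in all of them, by Pearson r of log2 CPM. For MT-TC/MT-TY the closest included the region that spans MT-TH, the plus strand histidine tRNA (r = 0.971), which was also second for MT-TA (r = 0.95). The counts of the MT-TH region were 797 and 882 in WT input, 1385 and 888 in WT IP, 3283 and 4794 in KO input and 2036 and 1857 in KO IP. For MT-TP the 3 closest were stretches of the same reference (r from 0.957 to 0.967), and for MT-TS1 no region exceeded r = 0.741. These values are descriptions over 8 libraries that share depth and fraction.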

How the data were processed

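ARP-seq input and IP libraries of WT and ALKBH1 KO cells were analysed, 2 per group and 8 in all. Per the study's methods, the authors removed PCR duplicates by molecular identifiers, mapped reads with STAR to tRNA and rRNA and then to GRCh38, kept unique genome reads and called Paraclu peaks library by library at default settings. The value they deposited for each peak is a cDNA count, not normalized. The spike-in was not analysed here.

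BED starts were raised by 1. Peaks of all libraries overlapping by at least 1 nt on a strand were merged and annotated with GENCODE. Counts were tested with edgeR 4.0.16 (quasi-likelihood, TMM, R 4.3.3, Benjamini-Hochberg, threshold 0.05) on regions with a peak in every compared library. The code was tested on simulated data with 4-fold changes, of which 85 to 96% were recovered. At an adjusted p under 0.05, from 4.48 to 10.8% of the simulated calls were wrong, with 10.8% in the inputs and 7.61% in the interaction. Calls close to the threshold are therefore less certain than their adjusted p. Where leaving out a library left 1 in a group, that library was assumed to vary like the others. Alternatives were DESeq2 1.42.0, other scalings and filters, a replicate block and leaving out each library. Adding the counts of exact nuclear copies, leaving MT-TM out of a share and the filter ratio on listed counts were chosen after seeing the data. Shares were compared by exact permutation in scipy 1.17.1. Nuclear copies were sought with blastn 2.17.0 at 90% identity or more. Replicates differed by more than counting error (chi-square per degree of freedom 3.93 to 6.52).

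All 8 genes are named whatever their values, and the genes and lists were chosen with earlier results of these data known. Intervals cover counting error only. Summed counts per library were 94218 and 98032 (WT input), 65413 and 48380 (WT IP), 194494 and 285539 (KO input), and 53420 and 52137 (KO IP).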

Additional observations from a re-analysis of the deposited data

Results flagged for a closer look

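The pulldown of MT-TP differed between genotypes: IP over input was lower in WT than in KO, with a log2 difference of -1.03 ± 0.329 (SE, edgeR's quasi-likelihood interaction test, Benjamini-Hochberg adjusted p = 0.0469, n = 2 libraries per group). IP was below input in both replicate numbers of each genotype, with CPM ratios of 0.106 and 0.162 in WT and 0.387 and 0.317 in KO. The WT IP libraries held 11 and 13 counts, close to the lowest listed count of 10, and the peaks of all 8 libraries reached beyond the gene. The call was lost in 7 of 8 fits that left out a library, with adjusted p from 0.051 (second WT input library) to 0.119 (first KO input library).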

How the results depend on the processing

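Peaks of 10 counts or more are all that is listed, so members near that level (MT-TQ, MT-TE, MT-TN in input, MT-TP in WT IP) are limited by depth, and 2 libraries per group limit every test. Of 299 values of single members under the alternatives, 242 kept direction and side of the threshold, 28 lost a call, 14 gained one and 15 changed sign. The members called between IP groups fell from 2 to 1 with a mean count of at least 50, since MT-TP then left the fit. In the inputs they fell from 2 to 1 with regions without a peak set to 0, and to between 0 and 1 when a library was left out. The interaction gave 2 called members with RLE factors, with summed counts as library sizes, with regions without a peak at 0 (MT-TN and MT-TC/MT-TY) and with a mean count of at least 50, but 0 with such regions at the lowest listed score and between 0 and 1 without a library. Sign changes came in values that had no call, and their cause was not tested. MT-TS1 in WT IP against input went to 0.041 with a mean count of at least 50 and ranged from -0.52 to 0.24 without a library. MT-TN between IP groups was at -0.0073 with RLE factors, -0.23 with summed counts, -0.044 with regions without a peak at 0, -0.23 with them at the lowest score and -0.012 in DESeq2, and ranged from -0.34 to 0.38 without a library, as MT-TS1 did from -0.82 to 0.19. The interaction of MT-TA was 0.24 with regions without a peak at the lowest score and ranged from -0.48 to 0.22 without a library, and that of MT-TC/MT-TY was 0.077 with them at the lowest score.

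The share of all counts was 0.942% in WT input with peaks above a score of 100, and 2.32% in KO IP with at least 0.5 of a peak inside the gene. In WT input, WT IP, KO input and KO IP it was 11.2, 5.03, 10.8 and 17.3% of the chrM counts, 17.1, 5.58, 17.1 and 26.2% of the mitochondrial tRNA counts, and 17.1, 25.7, 17.1 and 31.5% of those without the counts placed on MT-TM. The rule modelled on the study's filter kept 3 member regions in WT, and 1 with the ratio of listed counts.

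Over all regions, the number called differed by more than 1.5 times in these fits. With regions without a peak at 0 it went from 117 to 190 in WT IP against input, from 139 to 449 in KO, from 141 to 8 in the inputs and from 56 to 85 in the interaction. At the lowest score it was 554 in KO, 228 in the inputs and 95 in the interaction. DESeq2 called 54 regions between IP groups against 82, and 59 in the inputs. Without a library the numbers were 46 and 49 between IP groups without a KO IP library, 0 to 82 in the inputs, and 33 and 35 in the interaction without the second WT IP or the first KO input library.

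Replicate numbers are not stated to mark shared preparations, and with 2 pairs the correlation of replicate differences (0.23 to 0.533) is only a hint from the data. With a replicate block, the calls went from 117 to 136 in WT IP against input, from 139 to 142 in KO, from 82 to 116 between IP groups, from 141 to 208 in the inputs and from 56 to 70 in the interaction. The block added calls for MT-TS1 in KO IP against input (1.15, adjusted p = 0.00499) and in the inputs (0.88, adjusted p = 0.0014) and for MT-TA between IP groups (-0.82, adjusted p = 0.00995), and changed no other call of a member.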

Other observations

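The minus strand of the mitochondrial chromosome had 17 listed peaks outside the 8 tRNA genes, and none of them overlapped MT-ND6, the protein gene of that strand. The most deeply listed lay in the control region, with counts of 37 and 51 in WT input and 44 and 102 in KO input. None of the 19 genes of mitochondrial transcription, tRNA processing and tRNA charging that were looked up, such as POLRMT (the mitochondrial RNA polymerase), ELAC2 (which cuts tRNA 3′ ends) and YARS2 (which charges the tyrosine tRNA), had a listed peak: the count was 0 of 19.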
